A study of Mus musculus with 10 samples.

Results

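The 10 genes described here belong to the core programme of the white adipocyte. They are the transcription factors Pparg and Cebpa, the fatty acid supply and handling genes Lpl, Cd36, Fabp4 and Acsl1, the lipid droplet genes Plin4 and Cidec, and Pck1 and Gpd1, which make the glycerol backbone of triglyceride. They were chosen by symbol, as genes of adipocyte identity and lipid uptake, and all 10 were found among the 24421 gene symbols counted. The RNA came from white fat of the inguinal pad, under the skin, of C57BL/6J mice labelled WT (wild type), taken at 70 days from the left hindlimb. The limb had received electrons, 33.3 Gy delivered at the ultra-high rate called FLASH (4 libraries) or the same 33.3 Gy at conventional dose rate (CONV, 3 libraries), or the mice were sham animals with no irradiation (3 libraries). All 10 libraries carry the batch label 1, each started from a small piece of frozen fat, with age and sex of the mice not given in the sources used here. It is not stated either whether each library is a separate animal. The p-values set differences between groups against the spread between libraries of a group, which may be in part technical.

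A white adipocyte holds triglyceride in a large lipid droplet, filled from fatty acids that it takes from the blood and glycerol 3-phosphate that it makes itself. PPARG, a nuclear receptor that binds DNA together with RXR, and C/EBP alpha, the product of Cebpa, sustain each other's expression in the mature fat cell and bind near many of the genes that carry out this work. Inguinal fat of the mouse can also hold beige adipocytes, lymph nodes, skin appendages, vessels and neighbouring muscle, so that the level of an adipocyte gene in bulk RNA follows both the share of adipocyte RNA in the piece and the output of the cells. Fewer adipocytes and less of a transcript in each adipocyte cannot be told apart in such samples.

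Counts given to genes numbered 22.4 M to 36.0 M per library (M, 1e6) with a median of 31.2 M. Levels are given as CPM, counts per 1e6 gene counts after TMM scaling. FLASH replicate 3 and CONV replicate 2 stood apart from the other 8 libraries. The 8 B cell markers summed to 2022 CPM in FLASH replicate 3 and 3288 CPM in CONV replicate 2, against 2.51 to 28.9 CPM in the others, and the 7 T cell markers to 631 and 416 CPM against 3.16 to 9.38 CPM. Glycam1, a product of lymph node venules, stood at 36.9 and 144 CPM in these libraries and at 0.04 CPM or less in the others. Results are therefore given for all 10 libraries and for the 8 that remain without this lymphocyte-rich pair (FLASH n = 3, CONV n = 2, sham n = 3). Adipocyte identity was checked on 10 other adipocyte genes, the adipokine genes Adipoq and Cfd, the droplet coat gene Plin1, the lipase genes Lipe and Pnpla2, and Adig, Adrb3, Acvr1c, Aqp7 and Slc7a10. These were detected in all 10 libraries, at a summed 3033 to 13034 CPM in FLASH, 2515 to 17043 CPM in CONV and 10252 to 13407 CPM in sham. The 8 skeletal muscle markers summed to 1674 CPM in CONV replicate 1, 597 CPM in sham replicate 3 and 305 CPM in FLASH replicate 2, and to 1.69 to 35.8 CPM elsewhere. In CONV replicate 3 the 5 brown adipocyte markers summed to 222 CPM, with Ucp1 at 20.6 CPM, against 9.77 to 77.0 CPM in the other 9 libraries. In FLASH replicate 4 the 5 keratinocyte markers summed to 106 CPM, against 1.00 to 9.16 CPM in the other 9 libraries.

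The core adipocyte genes were among the most abundant transcripts of the tissue, and as a group they held 3.81%, 3.61%, 0.719% and 3.00% of all gene counts in FLASH replicates 1 to 4, 2.83%, 0.482% and 2.60% in CONV replicates 1 to 3, and 3.26%, 3.03% and 2.62% in sham replicates 1 to 3. The low values are those of the lymphocyte-rich pair. Per kilobase of the principal transcript, Lpl stood highest in sham with 2739 ± 554 CPM per kb (SD, n = 3), followed by Fabp4 with 2377 ± 473, and the ranges of these genes overlapped. Cd36 followed at 1085 ± 112 CPM per kb, below every sham library of Fabp4 and above every sham library of Plin4 (926 ± 66.6). The sham levels of Plin4, Pck1 (855 ± 307 CPM per kb), Cidec (786 ± 205), Acsl1 (558 ± 63.7) and Gpd1 (430 ± 162) ran into each other, each range overlapping that of its neighbour in this order. The transcription factor genes closed the order, with Cebpa at 237 ± 107 CPM per kb and Pparg at 136 ± 10.2. Cebpa overlapped Gpd1, and Pparg lay below every sham library of every other member. Lpl and Fabp4 held the top of this order in all 10 libraries, the lymphocyte-rich pair included, and Pparg held its end in all 10.

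**Figure D1:**
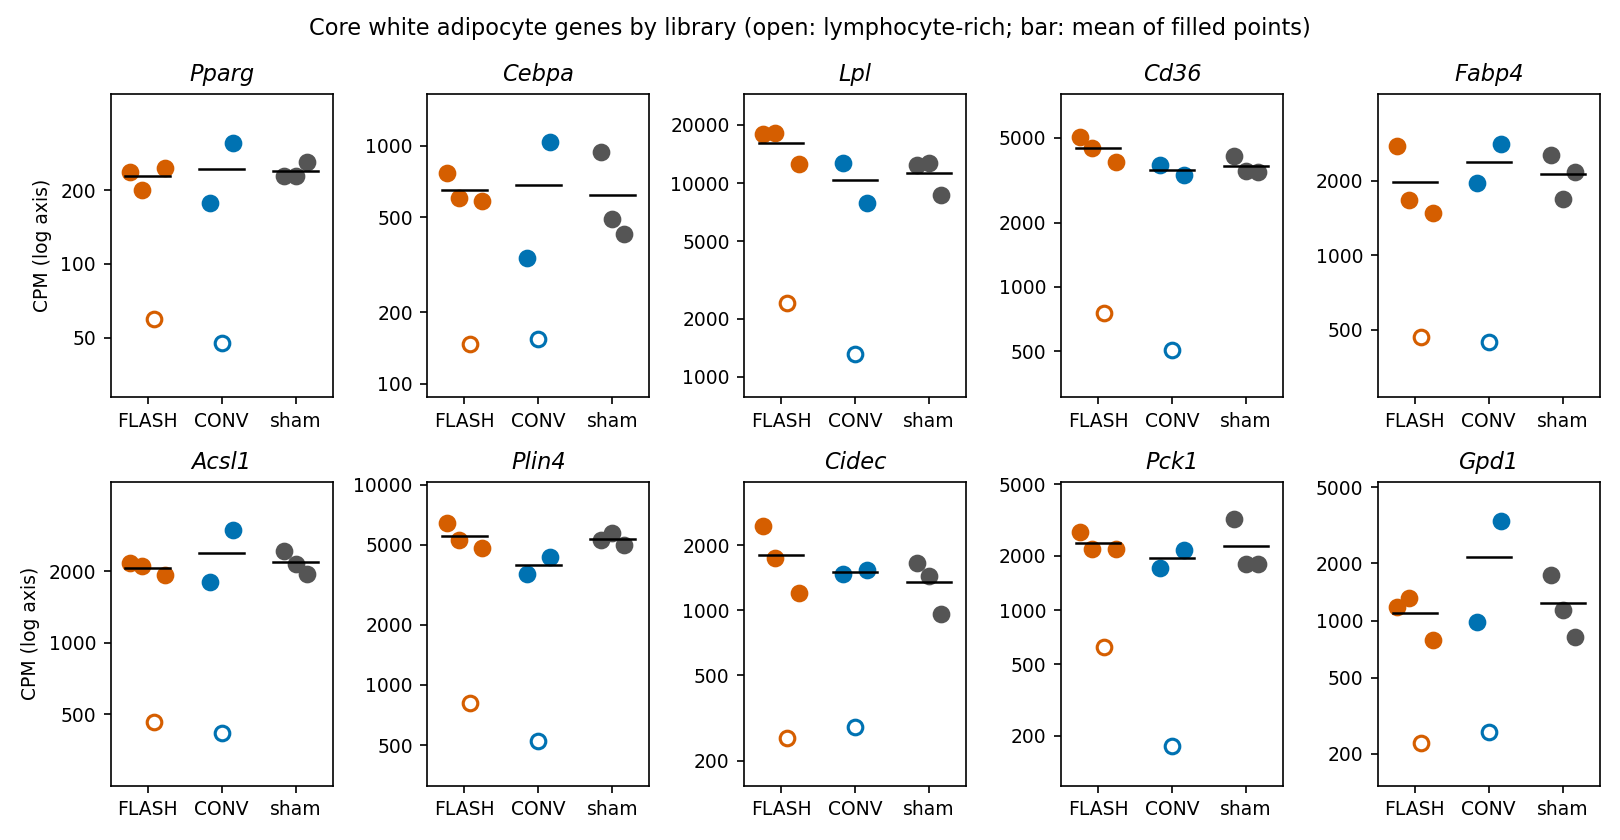
Level of each core adipocyte gene in every library, in CPM on a log axis, for FLASH, CONV and sham. Open points are FLASH replicate 3 and CONV replicate 2, filled points are the other 8 libraries and the bar is the mean of the filled points; the open points lie below every other point in all 10 panels.

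The libraries of the FLASH group were compared with those of sham to ask how the adipocyte programme stood 70 days after FLASH. None of the 10 core genes passed an adjusted p of 0.05 in edgeR's quasi-likelihood test, with all 10 libraries or with 8. With all 10 libraries 8 of the 10 log2 fold changes were negative (45.9% over all genes), from −0.49 (Gpd1) to 0.18 (Lpl), with a median of −0.27 against 0.03 over all genes. With the 8 libraries 6 of 10 were positive (48.5% over all genes), from −0.18 (Gpd1) to 0.51 (Lpl), with a median of 0.04 against −0.01 over all genes. The background was as empty: 0 of 15266 genes tested (0%) passed with all libraries and 0 of 15252 (0%) with 8, while 99 and 385 had an unadjusted p under 0.05, and DESeq2 called 0 and 4. No core gene separated FLASH from sham without overlap, in either set of libraries, where 4.91% of all genes did so with 10 libraries and 9.78% with 8. The SE of the members' log2 fold changes was 0.61 to 0.85 with all libraries and 0.17 to 0.46 with 8.

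The CONV group was compared with sham to ask the same of the conventional dose rate. None of the 10 core genes passed in either set. With all 10 libraries 9 of 10 log2 fold changes were negative (43.1% over all genes), from −0.92 (Plin4) to 0.31 (Gpd1), with a median of −0.38 against 0.08 over all genes, and with the 8 libraries 6 of 10 were positive (51.3% over all genes), from −0.44 (Plin4) to 0.78 (Gpd1), with a median of 0.06 against 0.01. Of all genes 0 of 15266 (0%) passed with 10 libraries, with 889 at an unadjusted p under 0.05 and 66 called by DESeq2, and 6 of 15252 (0.0393%) passed with 8, with 2022 at an unadjusted p under 0.05 and 661 called by DESeq2. Plin4 was the only core gene whose CONV and sham libraries did not overlap, lower in CONV in both sets. In that direction 9.11% of all genes did not overlap with 10 libraries and 13.2% with 8, so that 1 of 10 members lies near the share over all genes. Of 8 macrophage markers, 8 had a positive log2 fold change in CONV over 8 libraries (51.3% over all genes), with a median of 0.85. In edgeR 5 of them had an unadjusted p under 0.05 (13.3% over all genes) and 0 passed. The rise lay in CONV replicate 1, at a mean of 1.43 log2 units above sham. CONV replicates 2 and 3 stood at −0.03 and −0.001. The markers summed to 2607 CPM in CONV replicate 1, 1648 CPM in CONV replicate 2 (Lyz2 alone 1082 CPM) and 901 CPM in CONV replicate 3. They summed to 803 to 1238 CPM in FLASH and 856 to 1047 CPM in sham. Their part in the CONV values was not tested.

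FLASH was compared with CONV to ask whether the dose rate left a difference between mice that received the same dose. None of the 10 core genes passed in either set. With all 10 libraries 7 of 10 log2 fold changes were positive (44.2% over all genes), with a median of 0.21 against −0.04 over all genes, and with the 8 libraries 5 of 10 were positive (46.9% over all genes), with a median of 0.10 against −0.02. The extremes were the same genes in both sets, Gpd1 at −0.79 and −0.96 and Lpl at 0.80 and 0.66. Of all genes 0 of 15266 (0%) passed with 10 libraries, with 453 at an unadjusted p under 0.05 and 40 called by DESeq2, and 2 of 15252 (0.0131%) passed with 8, with 2082 at an unadjusted p under 0.05 and 667 called by DESeq2. With all libraries 0 core genes separated the groups without overlap, where 2.25% of all genes did. With the 8 libraries Plin4, Cd36 and Pck1 were higher in every FLASH library than in every CONV library and 0 core genes were lower throughout, where 12.8% of all genes were higher and 26.1% did not overlap in either direction. The 3 comparisons share libraries, FLASH and CONV being set against the same sham libraries, so they are not independent of each other.

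**Figure D2:**
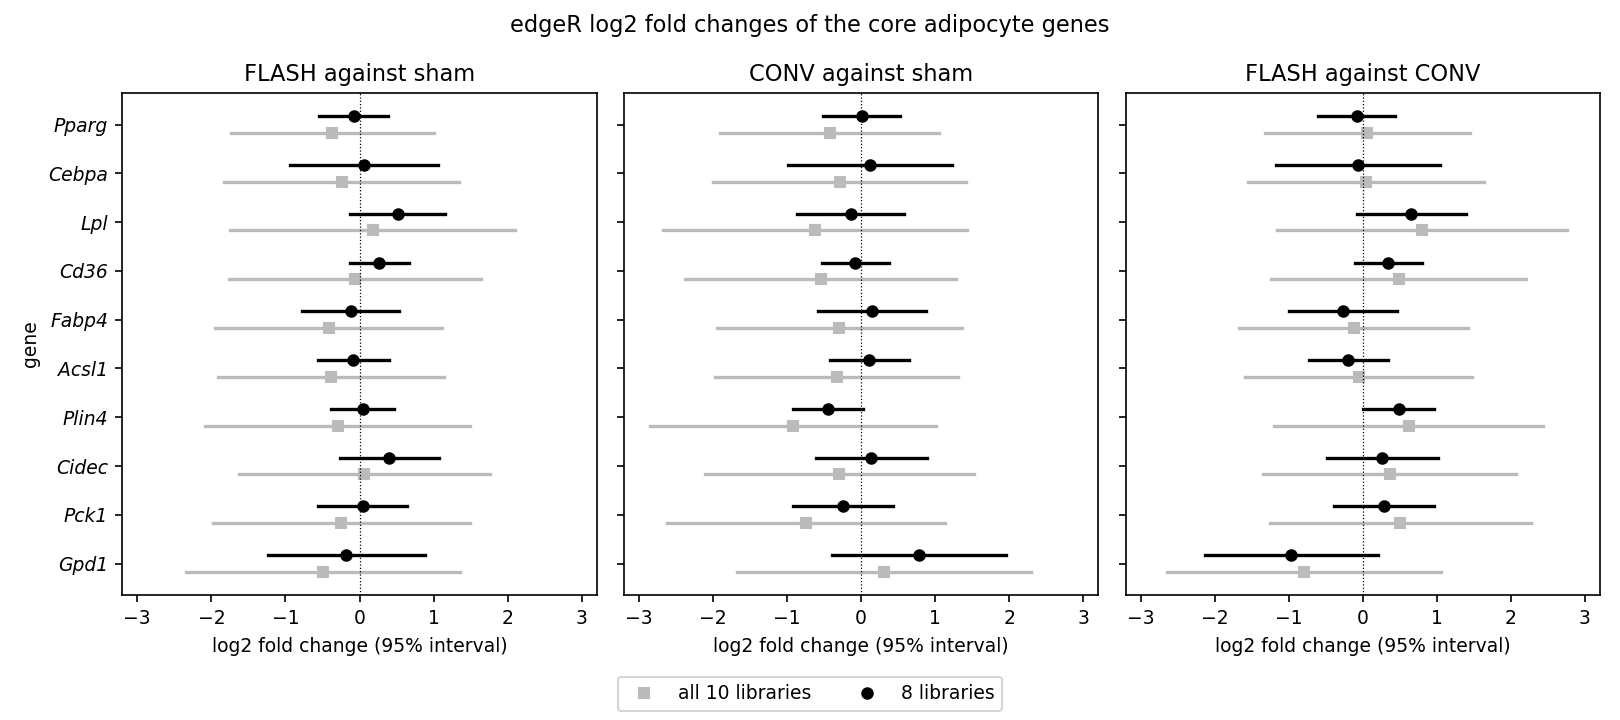
edgeR log2 fold changes of the 10 core genes with their 95% intervals, for each irradiated group against sham and for FLASH against CONV. Grey squares are fits with all 10 libraries and black circles fits with the 8 libraries; with 8 libraries the intervals are narrower for every gene, and the interval of Plin4 in FLASH against CONV (0.01 to 0.96) is the only one that leaves 0 out.

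Pparg and Cebpa are the transcription factor genes of the group. Pparg lies on chr6:115360951-115490399 (GRCm38, mm10, plus strand) and Cebpa on chr7:35119293-35121928 (plus strand). Cebpa overlaps an exon of the antisense gene Gm45091 by 51 bases. The kit keeps strand, but the counting may have ignored it, its setting being not given in the sources used here. Reads of genes on opposite strands may therefore not have been told apart. Promoter windows of 250 bases before to 50 after a transcription start were taken from RefSeq on GRCm38.p6 for the 7 members that matched (Pparg, Cebpa, Cd36, Acsl1, Plin4, Cidec and Pck1, 11 windows). The windows of 5 members are shown, those of both regulators and of the 3 genes that were higher in every FLASH than in every CONV library. On both strands they were searched for AGGTCA, the hexamer bound by nuclear receptors, for AGGTCANAGGTCA, the spaced repeat of it that PPARG and RXR bind together, for the C/EBP palindrome TTGCGCAA and for TATAAA, and capitals mark these matches. The GC box GGGCGG was searched for as well and is left in lower case. The windows below are Cebpa at chr7:35119043-35119342 and the second of 3 Pparg starts at chr6:115362099-115362398, both on the plus strand.
Cebpa: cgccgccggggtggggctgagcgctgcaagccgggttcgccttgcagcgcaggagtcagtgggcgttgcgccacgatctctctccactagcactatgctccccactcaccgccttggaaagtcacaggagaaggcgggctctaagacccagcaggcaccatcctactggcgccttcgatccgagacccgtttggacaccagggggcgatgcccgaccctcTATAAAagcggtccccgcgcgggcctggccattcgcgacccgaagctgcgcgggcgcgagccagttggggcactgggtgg
Pparg: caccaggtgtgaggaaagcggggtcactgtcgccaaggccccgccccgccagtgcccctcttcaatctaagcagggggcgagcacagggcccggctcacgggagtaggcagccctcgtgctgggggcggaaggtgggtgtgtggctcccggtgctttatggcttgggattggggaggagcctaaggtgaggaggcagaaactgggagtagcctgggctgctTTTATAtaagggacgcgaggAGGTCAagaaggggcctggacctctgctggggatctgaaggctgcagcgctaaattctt
Counted from the transcription start, the Cebpa window holds TATAAA from position −30. The Pparg window shown holds TATAAA on the opposite strand from −29 and AGGTCA from −9. Of the Pparg windows not shown, the first holds AGGTCA from −28 and GGGCGG but no TATAAA, and the third holds none of these motifs. Which Pparg start was in use in these samples was not tested. Among 32851 windows of this length, 13.6% hold TATAAA, 16.3% AGGTCA, 35.7% GGGCGG, 0.183% TTGCGCAA and 0.0396% AGGTCANAGGTCA, which contains AGGTCA at both ends. Of the 11 windows of core genes 2 hold TATAAA, 3 hold AGGTCA, 5 hold GGGCGG and 0 hold either TTGCGCAA or AGGTCANAGGTCA. A match is a description of the letters and no match says nothing of binding elsewhere.

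Pparg stood at 238, 200, 59.4 and 247 CPM in FLASH replicates 1 to 4, at 177, 47.7 and 310 CPM in CONV replicates 1 to 3, and at 229, 229 and 260 CPM in sham replicates 1 to 3. Beside the lymphocyte-rich pair, the CONV libraries lay on either side of the narrow sham range and the FLASH libraries just below or within it. The log2 fold changes with 8 libraries were −0.08 ± 0.20 (SE) in FLASH and 0.01 ± 0.22 in CONV against sham, with 95% intervals of −0.54 to 0.39 and −0.51 to 0.52. Cebpa stood at 765, 602, 147 and 588 CPM in FLASH, at 339, 154 and 1034 CPM in CONV, and at 943, 493 and 427 CPM in sham. Its groups overlapped throughout, and CONV replicates 1 and 3 differed by a factor of 3.05, the span of the gene over the 8 libraries. With 8 libraries its log2 fold changes were 0.06 ± 0.43 in FLASH and 0.12 ± 0.48 in CONV against sham, and −0.06 ± 0.48 in FLASH against CONV, with an interval of −1.18 to 1.05.

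Other transcription factors of fat cell differentiation gave no call either. Of 16 listed activators (among them Cebpb, Klf15, Ebf1, Srebf1 and Rxra) 0 passed in either direction in any comparison, with medians of −0.15 in FLASH and −0.22 in CONV against sham over 10 libraries, and 0.01 and 0.04 over 8. The smallest p among them belonged to Cebpd, which acts early in differentiation upstream of Cebpa and Pparg. It stood at 14.5, 15.6, 11.2 and 14.6 CPM in FLASH, 23.0, 9.65 and 22.7 CPM in CONV and 11.6, 10.6 and 8.47 CPM in sham. Without the pair all libraries of FLASH and of CONV lay above sham, as 5.14% of all genes did in FLASH and 13% in CONV. The log2 fold changes of Cebpd were 0.53 ± 0.15 (edgeR adjusted p = 1) and 1.14 ± 0.16 (adjusted p = 0.0747), neither past the threshold. Nr1h3, which encodes the sterol receptor LXR alpha, had a log2 fold change of 0.42 ± 0.17 in CONV against sham over 8 libraries (edgeR adjusted p = 0.340). It stood at 65.0 CPM in CONV replicate 1 and 97.9 CPM in CONV replicate 3, against 63.0, 60.3 and 56.7 CPM in sham. Srebf1, a regulator of lipogenesis, stood at 1076 CPM in CONV replicate 3 against 224 CPM in CONV replicate 1, and at 256, 215, 118 and 237 CPM in FLASH against 334, 231 and 208 CPM in sham. Of 12 listed inhibitors of adipogenesis 0 passed, with medians of −0.14 in FLASH and −0.23 in CONV against sham over 8 libraries. Wnt5a, a Wnt ligand that restrains differentiation, was the nearest, at 34.5 and 31.0 CPM in the CONV libraries kept, against 55.2, 63.1 and 48.2 CPM in sham (log2 fold change −0.78 ± 0.17, adjusted p = 0.126). Wnt10b, another such ligand, stood at 2.43, 1.14 and 0.40 CPM in CONV, below 4.10, 7.75 and 3.66 CPM in sham, and at 2.94, 7.47, 0.89 and 5.35 CPM in FLASH. Gata3, which holds back preadipocytes and is also a T cell factor, reached 23.3 CPM (FLASH replicate 3) and 13.6 CPM (CONV replicate 2) in the pair. It stood at 8.90 CPM in FLASH replicate 4 and at 1.54 to 2.20 CPM in the other libraries. In FLASH replicate 4 the T cell markers summed to 7.57 CPM, within the sham range of 3.16 to 8.05 CPM, and the keratinocyte markers to 106 CPM. The part of these in the Gata3 values was not tested.

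Lpl, Cd36, Fabp4 and Acsl1 carry fatty acids from lipoproteins into the cell. Lpl (chr8:68880491-68907448, plus strand) encodes lipoprotein lipase, which frees fatty acids from circulating triglyceride at the capillary wall. It stood at 17870, 18170, 2407 and 12540 CPM in FLASH, at 12784, 1308 and 7888 CPM in CONV, and at 12459, 12712 and 8642 CPM in sham. FLASH replicates 1 and 2 lay above every sham library and FLASH replicate 4 lay within the sham range. CONV replicate 1 lay just above that range, and above FLASH replicate 4, while CONV replicate 3 lay just below it. Without the pair the log2 fold changes were 0.51 ± 0.28 in FLASH against sham (95% interval −0.13 to 1.16), −0.14 ± 0.31 in CONV against sham (−0.87 to 0.58) and 0.66 ± 0.32 in FLASH against CONV (−0.08 to 1.39, edgeR adjusted p = 0.418).

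Cd36 (chr5:17781690-17888801, minus strand) encodes the membrane receptor that takes up long-chain fatty acids. The window of its start in the RefSeq table lies at chr5:17835847-17836146 on the minus strand and holds AGGTCA on the opposite strand from position −228.
Cd36: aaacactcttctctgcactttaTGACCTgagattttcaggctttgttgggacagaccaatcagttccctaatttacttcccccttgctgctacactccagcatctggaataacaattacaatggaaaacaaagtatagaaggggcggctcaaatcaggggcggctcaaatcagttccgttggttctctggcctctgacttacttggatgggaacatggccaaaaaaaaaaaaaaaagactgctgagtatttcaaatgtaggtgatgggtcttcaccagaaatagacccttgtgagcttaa
Cd36 stood at 5047, 4500, 752 and 3853 CPM in FLASH, at 3736, 507 and 3339 CPM in CONV, and at 4126, 3484 and 3455 CPM in sham. Outside the pair this was the member with the smallest span over the 8 libraries, 1.51-fold between CONV replicate 3 and FLASH replicate 1. All 3 FLASH libraries kept lay above both CONV libraries, and they overlapped the sham range. The log2 fold change of FLASH against CONV was 0.35 ± 0.20 with an interval of −0.11 to 0.80 (edgeR adjusted p = 0.489), that of FLASH against sham 0.27 ± 0.17 and that of CONV against sham −0.08 ± 0.19.

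Fabp4 (chr3:10204088-10208576, minus strand) encodes the fatty acid binding protein of the fat cell's cytosol. It stood at 2761, 1678, 467 and 1479 CPM in FLASH, at 1952, 445 and 2816 CPM in CONV, and at 2532, 1688 and 2170 CPM in sham, so that the groups overlapped with and without the pair. Acsl1 (chr8:46471037-46536051, plus strand) encodes the ligase that turns fatty acids into acyl-CoA, and 1039 bases of its exons overlap a locus annotated as TEC, Gm45244, on the opposite strand. It stood at 2168, 2106, 463 and 1923 CPM in FLASH, at 1802, 416 and 2967 CPM in CONV, and at 2437, 2147 and 1943 CPM in sham. For both genes CONV replicate 3 was the highest of all 10 libraries. Their log2 fold changes with 8 libraries lay between −0.26 (Fabp4, FLASH against CONV, interval −0.99 to 0.46) and 0.14 (Fabp4, CONV against sham, interval −0.58 to 0.87).

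The partners of these genes in lipid uptake gave 0 of 16 past the threshold in every comparison. Their medians over the 8 libraries were 0.10 in FLASH against sham, 0.21 in CONV against sham and 0.03 in FLASH against CONV. Slc27a1, a fatty acid transport protein, stood at 661, 570, 147 and 694 CPM in FLASH and at 695, 161 and 1132 CPM in CONV, against 468, 275 and 373 CPM in sham. Outside the pair every irradiated library lay above every sham library, as 5.14% of all genes did in FLASH and 13% in CONV. The log2 fold changes of Slc27a1 were 0.78 ± 0.25 in FLASH (adjusted p = 1) and 1.28 ± 0.27 in CONV (adjusted p = 0.116). Cav1, which encodes the main coat protein of caveolae, stood at 1777 and 1233 CPM in the CONV libraries kept. That was below 3692, 2895 and 2070 CPM in FLASH and 2700, 2873 and 2193 CPM in sham (log2 fold change −0.80 ± 0.29 in CONV against sham, adjusted p = 0.293). Without the pair 13.2% of all genes were lower in every CONV than in every sham library. Acsl5, another acyl-CoA ligase gene, stood at 69.8 to 94.9 CPM in CONV, above 53.9, 57.2 and 60.4 CPM in sham, and at 54.6, 56.0, 76.3 and 58.1 CPM in FLASH. Its log2 fold change over 8 libraries was 0.42 ± 0.12 in CONV against sham (adjusted p = 0.201). Angptl8, an inhibitor of lipoprotein lipase counted under an older symbol, stood at 41.9 CPM in CONV replicate 3 and at 0.35 to 6.93 CPM in the other 9 libraries.

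Plin4 and Cidec encode proteins of the lipid droplet. Plin4 (chr17:56100591-56109803, minus strand) encodes perilipin 4, which coats small and newly formed droplets, and its exons overlap those of Hdgfl2 on the opposite strand by 17 bases. Its promoter window at chr17:56109733-56110032 on the minus strand holds none of the motifs searched.
Plin4: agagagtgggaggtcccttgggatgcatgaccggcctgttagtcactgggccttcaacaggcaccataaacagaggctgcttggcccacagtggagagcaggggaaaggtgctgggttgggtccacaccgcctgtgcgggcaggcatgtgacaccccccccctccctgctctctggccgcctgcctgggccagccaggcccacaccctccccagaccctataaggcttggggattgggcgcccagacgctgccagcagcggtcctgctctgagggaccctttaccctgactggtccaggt
Plin4 stood at 6433, 5295, 815 and 4830 CPM in FLASH, at 3577, 523 and 4366 CPM in CONV, and at 5273, 5739 and 4979 CPM in sham. All CONV libraries lay below every sham library, by at least 612 CPM. CONV replicates 1 and 3 also lay below FLASH replicates 1, 2 and 4, whereas FLASH and sham overlapped. Without the pair the mean was 5519 ± 824 CPM in FLASH (SD, n = 3), 3972 ± 558 CPM in CONV (n = 2) and 5330 ± 383 CPM in sham (n = 3). The log2 fold change was −0.44 ± 0.21 in CONV against sham (interval −0.92 to 0.03, edgeR unadjusted p = 0.0631, adjusted p = 0.410) and 0.48 ± 0.21 in FLASH against CONV (interval 0.01 to 0.96, edgeR unadjusted p = 0.0465, adjusted p = 0.354). In FLASH against sham it was 0.04 ± 0.18, with an interval of −0.38 to 0.46. The sign of Plin4 was the same under each of the 33 alternatives in CONV against sham (log2 fold change −1.38 to −0.31) and in FLASH against CONV (0.13 to 1.09), and it passed the threshold in none of them. The alternatives reuse the same libraries. As all CONV libraries lay below all sham libraries, the sign against sham could hardly turn, and its constancy adds no support. Plin1, the perilipin of the large droplet, stood at 1326 and 1380 CPM in the same CONV libraries. That was below 1754, 1641 and 1524 CPM in FLASH and 1716, 1721 and 1833 CPM in sham (−0.40 ± 0.15 in CONV against sham, adjusted p = 0.310). Without the pair 13.2% of all genes were lower in every CONV than in every sham library.

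Cidec (chr6:113424634-113435760, minus strand) encodes the protein that joins droplets into larger ones. It stood at 2456, 1753, 256 and 1195 CPM in FLASH, at 1479, 288 and 1537 CPM in CONV, and at 1654, 1435 and 965 CPM in sham. The highest values were those of FLASH replicates 1 and 2, above every sham and CONV library, while FLASH replicate 4 lay inside the sham range. The log2 fold changes with 8 libraries were 0.40 ± 0.29 in FLASH (interval −0.27 to 1.07) and 0.14 ± 0.32 in CONV (−0.61 to 0.88) against sham. Of 11 other listed droplet genes 10 were tested and 0 passed in any comparison. Their medians over 8 libraries were −0.02 in FLASH and 0.42 in CONV against sham. The CONV libraries kept were split, with the mean of the 11 at 0.94 log2 units from sham in CONV replicate 3 and −0.30 in CONV replicate 1. In CONV replicate 3, 9 of the 11 lay above every sham library and 0 below, and in CONV replicate 1, 2 lay above and 3 below. Abhd5, the activator of the triglyceride lipase, stood at 132 and 251 CPM in the CONV libraries kept against 108, 91.6 and 91.5 CPM in sham (0.96 ± 0.24, adjusted p = 0.152), and at 136, 118 and 129 CPM in FLASH. Cidea, the relative of Cidec typical of brown and beige fat cells, stood at 5.94, 4.46, 4.48 and 5.96 CPM in FLASH, at 9.19, 3.38 and 113 CPM in CONV, and at 40.7, 8.07 and 12.0 CPM in sham. Every FLASH library lay below every sham library, as 2.45% of all genes did with 10 libraries, and over 8 libraries the log2 fold change was −1.90 ± 0.89 in FLASH against sham (adjusted p = 1) and −3.46 ± 0.98 in FLASH against CONV (adjusted p = 0.200). Plin2, the perilipin found in most cell types, reached 499 CPM in CONV replicate 3 and 201 CPM in CONV replicate 1, against 321, 210 and 169 CPM in sham.

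Pck1 and Gpd1 serve the supply of glycerol 3-phosphate. Pck1 encodes the cytosolic carboxykinase that turns oxaloacetate into phosphoenolpyruvate on the way from pyruvate, and Gpd1 encodes the dehydrogenase that reduces the glycolytic intermediate dihydroxyacetone phosphate. Pck1 lies on chr2:173153048-173159273 (plus strand), and its promoter window at chr2:173152823-173153122 on the plus strand holds GGGCGG from position −16 and none of the other motifs.
Pck1: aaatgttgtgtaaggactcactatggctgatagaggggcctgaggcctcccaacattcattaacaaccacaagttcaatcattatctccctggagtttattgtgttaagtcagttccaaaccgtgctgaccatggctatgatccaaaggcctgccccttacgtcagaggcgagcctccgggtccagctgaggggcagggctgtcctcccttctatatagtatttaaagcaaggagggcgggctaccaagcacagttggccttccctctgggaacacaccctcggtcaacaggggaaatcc
Pck1 stood at 2701, 2191, 622 and 2173 CPM in FLASH, at 1722, 177 and 2165 CPM in CONV, and at 3219, 1797 and 1809 CPM in sham. Outside the pair every FLASH library lay above both CONV libraries, though CONV replicate 3 and FLASH replicate 4 differed by 7.53 CPM. The sham range held all 3 of these FLASH libraries and CONV replicate 3, while CONV replicate 1 lay below it. The log2 fold change of FLASH against CONV was 0.29 ± 0.29 (interval −0.39 to 0.96), within the spread between libraries.

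Gpd1 (chr15:99717515-99725005, plus strand) has 384 bases of exon in common with the antisense gene Gm16537. It stood at 1177, 1320, 227 and 786 CPM in FLASH, at 978, 261 and 3328 CPM in CONV, and at 1734, 1140 and 819 CPM in sham. CONV replicate 3 alone was far above all other libraries, while CONV replicate 1 lay inside the sham range, and Gpd1 had the widest span of the members over the 8 libraries, 4.23-fold. Its log2 fold change in CONV against sham was 0.78 ± 0.51 (interval −0.39 to 1.95), and −0.96 ± 0.51 in FLASH against CONV (−2.13 to 0.21, edgeR adjusted p = 0.453). In the 8-library fit without CONV replicate 3 the sign of both turned, to −0.34 in CONV against sham and 0.16 in FLASH against CONV. The same library held the brown adipocyte markers and the Srebf1 level given above, and the part of these in the Gpd1 value was not tested.

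Other genes of glycerol 3-phosphate supply and use were also highest in this library as a sum. The 11 listed genes summed to 5916 CPM in CONV replicate 3 and 1846 CPM in CONV replicate 1, against 2261, 2070 and 1841 CPM in the FLASH libraries kept and 3149, 1736 and 1382 CPM in sham. None of the 11 passed in any comparison. Over 8 libraries 9 of 11 log2 fold changes were positive in CONV against sham (51.3% over all genes), with a median of 0.80 against 0.01. In FLASH against CONV 9 of 11 were negative (53.1% over all genes, median −0.80), and in FLASH against sham 7 of 11 were positive (48.5%, median 0.05). In CONV replicate 3, 9 of the 11 lay above every sham library and 1 below. In CONV replicate 1, 3 lay above and 4 below. Pdk4, the kinase that shuts pyruvate out of oxidation, stood at 250 and 324 CPM in the CONV libraries kept, above 99.4, 119 and 89.7 CPM in FLASH and 136, 66.7 and 122 CPM in sham. Its log2 fold change was 1.39 ± 0.28 in CONV against sham (adjusted p = 0.110) and −1.47 ± 0.29 in FLASH against CONV (adjusted p = 0.118). Without the pair 13% of all genes were higher in every CONV than in every sham library, and 13.3% higher than in every FLASH library. Gpam, which adds the initial acyl chain to glycerol 3-phosphate, stood at 263 and 580 CPM in the same CONV libraries against 208, 187 and 161 CPM in sham (1.16 ± 0.30, adjusted p = 0.165). Got1, the cytosolic aspartate aminotransferase, stood at 25.9, 20.9 and 5.52 CPM in CONV, at 6.36, 8.82, 15.0 and 7.54 CPM in FLASH, and at 4.50, 6.44 and 6.62 CPM in sham, so that CONV replicate 3 lay inside the sham range (log2 fold change over 8 libraries 1.41 ± 0.53 in CONV against sham, adjusted p = 0.314). The skeletal muscle markers summed to 1674, 7.84 and 1.69 CPM in CONV replicates 1 to 3. Their part in the Got1 and Pdk4 values was not tested.

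In the lymphocyte-rich libraries all 10 core genes were low together. FLASH replicate 3 and CONV replicate 2 each lay below the lowest sham library for 10 of 10 members, where 42.6% and 43.1% of all tested genes did so. In the other libraries members lay on both sides of sham. In FLASH replicate 1, 0 members lay below every sham library and 5 above (27.5% and 27.3% of all genes). In FLASH replicate 2 these were 2 and 3 members (22.4% and 21.9%), and in FLASH replicate 4 they were 4 and 0 (22.8% and 23.9%). CONV replicate 1 had 5 members below and 1 above (28.3% and 28.5%), and CONV replicate 3 had 3 below and 5 above (35.0% and 37.5%). Against the mean of the other FLASH libraries the members in FLASH replicate 3 were 3.78-fold (Pck1) to 7.03-fold (Cidec) lower. Against the mean of the other CONV libraries those in CONV replicate 2 were 4.45-fold (Cebpa) to 11.0-fold (Pck1) lower. Pck1, the least reduced member in FLASH replicate 3, was thus the most reduced in CONV replicate 2. The 10 other adipocyte genes were 2.21-fold (Adrb3) to 6.35-fold (Slc7a10) lower in FLASH replicate 3 and 4.52-fold (Slc7a10) to 10.6-fold (Adrb3) lower in CONV replicate 2. Slc7a10, an amino acid transporter typical of white fat cells, was the gene of this list with the smallest p in FLASH against sham over 8 libraries, at 322, 314 and 304 CPM in the FLASH libraries kept against 233, 191 and 217 CPM in sham (0.54 ± 0.13, edgeR unadjusted p = 0.00318, adjusted p = 1). The B and T cell sums given above move with these low values. So do the sums of other markers. The 8 adipose progenitor markers summed to 1481 CPM in FLASH replicate 3 and 1557 CPM in CONV replicate 2, against 3291 to 7528 CPM in the other libraries. The 8 endothelial markers summed to 704 and 610 CPM, against 950 to 1265 CPM. Single markers differed. Of the endothelial markers 6 and 7 lay below every sham library, and Pecam1 lay above, at 281 and 261 CPM. Of the progenitor markers 6 lay below in each library. Dpp4 lay above in both, at 148 and 123 CPM, and Ly6a in CONV replicate 2, at 142 CPM. The pair also had the largest shares of entries given to no gene, 69.6% and 66.7% against 52.0% to 62.0%, and the fewest gene counts, 22.4 M and 25.5 M against 28.6 M to 36.0 M. The part of these in the low values was not tested. The members' median log2 fold change against sham was −0.27 with and 0.04 without this pair in FLASH, and −0.38 with and 0.06 without it in CONV.

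**Figure D3:**
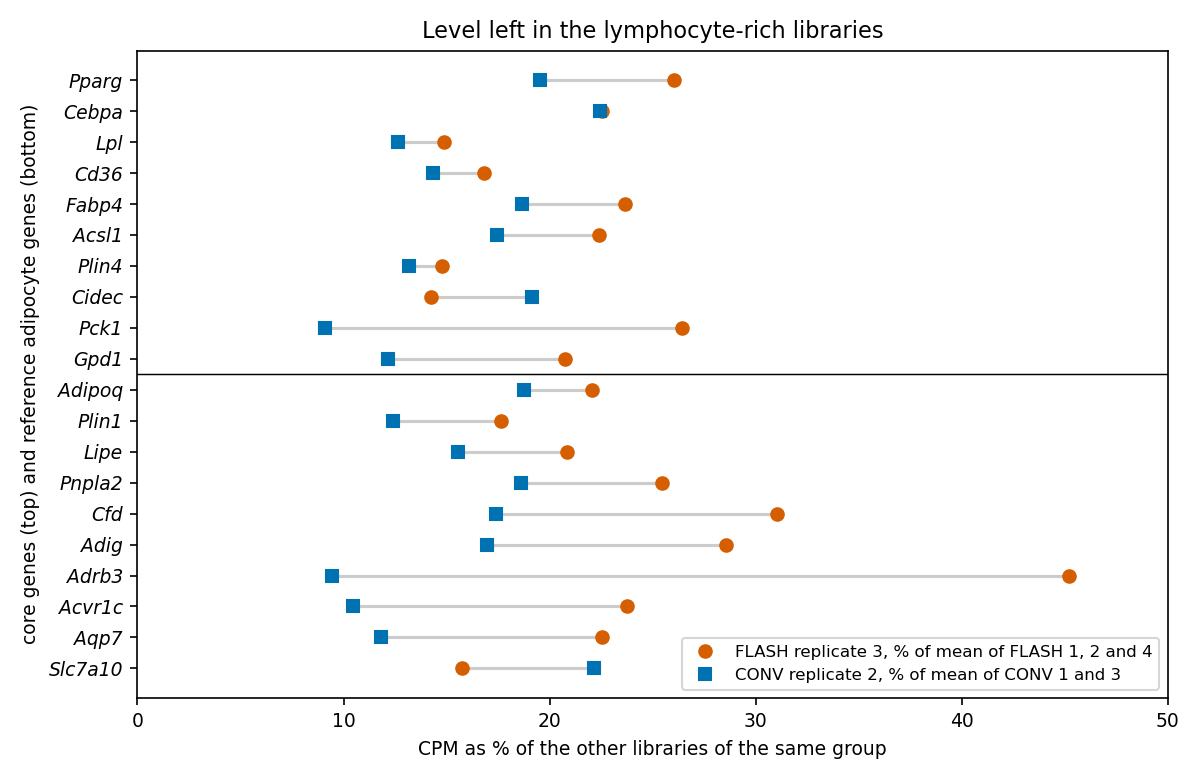
CPM of the 10 core genes (top) and of 10 other adipocyte genes (bottom) in FLASH replicate 3 and CONV replicate 2, as a percentage of the mean of the other libraries of the same group. All core genes lie between 9.08% (Pck1, CONV replicate 2) and 26.4% (Pck1, FLASH replicate 3).

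To set the core genes against other adipocyte RNA of the same piece, each was also expressed relative to the mean log2 CPM of the 10 other adipocyte genes and centred on sham. On this scale the lymphocyte-rich libraries lay closer to sham than in CPM, from −0.84 (Plin4) to 0.05 (Pck1) in FLASH replicate 3 and from −1.18 (Pck1) to 0.53 (Cebpa) in CONV replicate 2. Plin4 stayed low in CONV, at −0.73, −0.89 and −0.65 log2 units in CONV replicates 1 to 3, against −0.27, 0.38 and −0.11 in sham. In FLASH, Plin4 stood at −0.01, −0.12, −0.84 and −0.25. Plin4, Cd36 and Pck1 were lower in every CONV than in every sham library on this scale and 0 members were higher. In the same direction 1.66% of all genes did not overlap with 10 libraries and 19.7% with 8 libraries, in which the same 3 members separated. With 10 libraries the scale itself leaves few genes low in an irradiated group. In the edgeR fit scaled by the reference genes, 84.8% of all genes were positive in FLASH and 87.8% in CONV against sham. In FLASH against CONV 13.2% were. The shares with 10 libraries on this scale are therefore no background for adipocyte genes. The margin of Cd36 was narrow, its highest CONV library lying at −0.13 and its lowest sham library at −0.10. Cd36 and Pck1 overlapped sham in CPM with the 8 libraries and separated only on this scale, and the reference genes themselves stood higher in the CONV libraries kept, with a mean log2 level that exceeded the sham mean by 0.15 (CONV replicate 1) and 0.37 (CONV replicate 3). Over 8 libraries 4 of these 10 had an unadjusted p under 0.05 in edgeR in CONV against sham, where 13.3% of all genes did, and 0 passed. Of the 4, 3 had a positive log2 fold change, Cfd (0.72), Adig (0.89) and Adrb3 (1.01), and 1 a negative one, Plin1 (−0.40). The part of this in the low relative values was not tested. No member separated FLASH from sham on this scale (lower in FLASH, 0.432% of all genes with 10 libraries and 7.24% with 8). Pck1 was higher in every FLASH than in every CONV library with all 10 libraries (0.878% of all genes), and Plin4, Lpl, Cd36 and Pck1 were with 8 (16.9%). These overlaps were counted after the values had been seen and have no test. Lpl stood at 0.40, 0.60, −0.34 and 0.07 in FLASH, 0.05, −0.63 and −0.86 in CONV and −0.09, 0.47 and −0.37 in sham. When the libraries of the edgeR fit were scaled by these 10 genes, which moves the median of all genes with 10 libraries to 0.64 in FLASH and 1.26 in CONV against sham and to −0.59 between FLASH and CONV, and with 8 libraries, in the same order, to −0.18, −0.24 and 0.06, again 0 of 10 members passed in any comparison. The members' medians were then −0.16, −0.11 and −0.02 with 10 libraries and −0.12, −0.22 and 0.19 with 8.

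**Figure D4:**
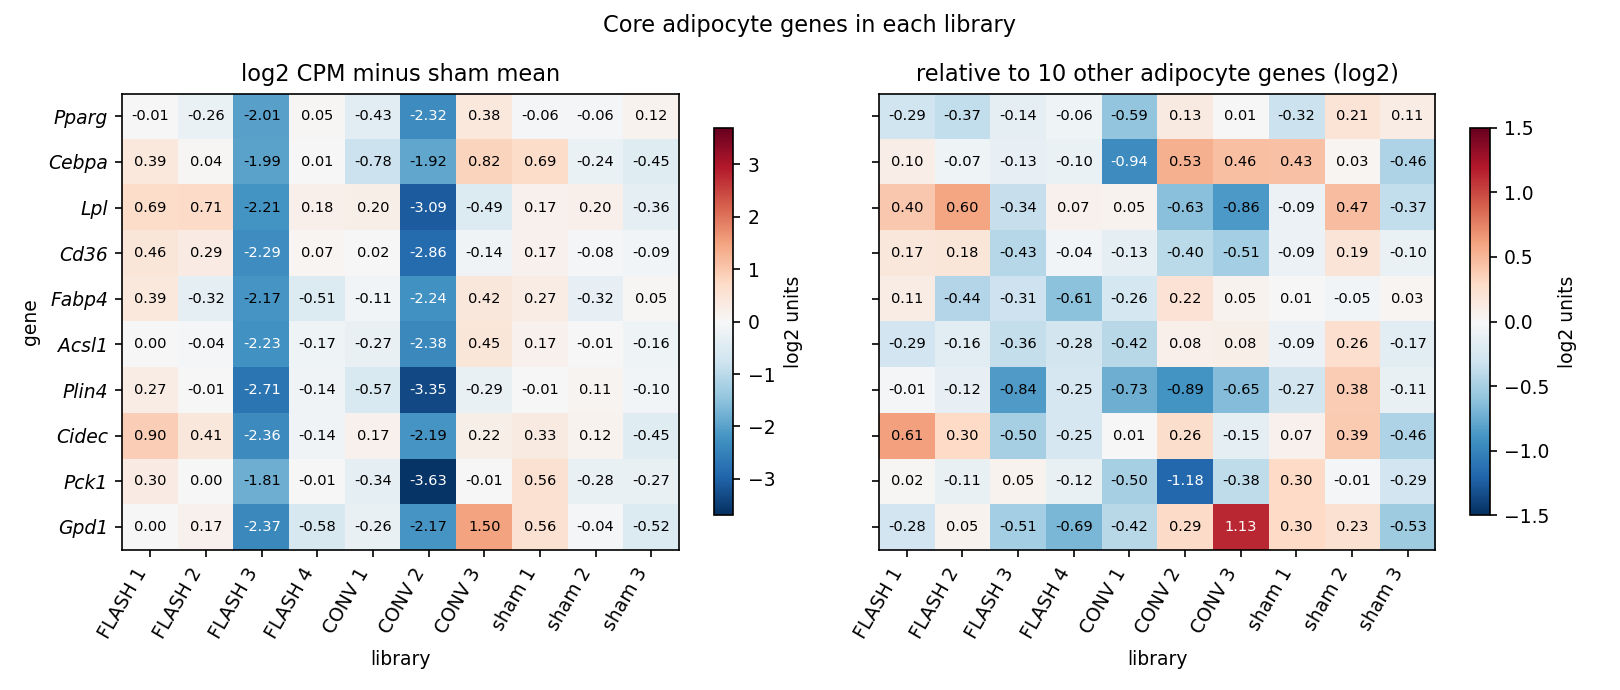
Left, log2 CPM of each core gene minus its sham mean, per library; right, log2 level relative to 10 other adipocyte genes, centred on sham. The dark blue columns of FLASH replicate 3 and CONV replicate 2 on the left are mostly pale on the right, where Plin4 is negative in all 3 CONV libraries (−0.73, −0.89 and −0.65).

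The genes whose profile over libraries came nearest to the mean profile of the core genes were sought among 5539 genes with a mean log2 CPM of at least 5, by the root mean square difference of log2 CPM centred on sham. Over all 10 libraries these included Cdo1 (0.10 log2 units), Atp9a (0.12), Trf (0.14) and Cd151 (0.14), where the median gene differed by 1.05. The members themselves differed from their own mean by 0.16 (Acsl1) to 0.47 (Gpd1). None of these 4 was among the 5 nearest over the 8 libraries, where the mean profile of the core genes ran from −0.24 (CONV replicate 1) to 0.34 (FLASH replicate 1). There the nearest genes were Fis1 (0.034), Tmem59 (0.052), Snx17 (0.053), Mapkapk2 (0.055) and Ube2m (0.056), and the members differed from it by 0.15 (Acsl1) to 0.50 (Gpd1), against a median of 0.30 over all genes.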

How the data were processed

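Per the labels' protocols, RNA was extracted from frozen fat with TRIzol and columns, and ribosome-depleted stranded total RNA libraries were made. The deposited files hold raw counts, whole numbers per gene symbol and library, and the submitters' processing notes name kallisto 0.5.0 and mm10. Each file ends, however, in 5 entries with the names that htseq-count writes, so which tool made the counts could not be settled. The setting for strand and the gene models were not given in the sources used here. Entries for reads given to no gene (52.0% to 69.6% of all entries) were left out. At the depth reached, the smallest count of a member in any library was 1422, a counting error of 2.65%, which covers counting error only.

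Differences were tested in edgeR 4.0.16 under R 4.3.3. Genes were kept by filterByExpr, scaled by TMM and fitted by the robust quasi-likelihood model with 1 mean per group over all libraries. P-values are two-sided, adjusted by Benjamini and Hochberg over all genes tested, with a threshold of 0.05. The SE is the absolute log2 fold change over the square root of F, and intervals are 95%. The biological coefficient of variation common to all genes came to 0.543 with 10 libraries and to 0.284 with 8. Alternatives used other scalings and filters, DESeq2 1.42.0, limma 3.58.1 voom with quality weights, the 2 groups alone, the replicate number as a block, and each library left out. CPM use the TMM factors of the fit with 10 libraries, and log2 levels have 0.1 CPM added. The length per kilobase is that of the APPRIS principal transcript in GENCODE M21. The fits were tested on simulated data.

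The members, the gene lists and the pair left out were chosen with earlier results of these data known. The rule for named genes took, besides the members, the 3 with the smallest p of each list of adipocyte biology in CONV or FLASH against sham, with 10 or 8 libraries, 40 genes in all, and the 5 nearest profiles, of which 1 is not reported here. Of the 40, the 16 with an unadjusted p under 0.05 are described, and of the other 24, whose lowest p was 0.0661, some are. Genes taken by smallest p are those most apt to separate the groups, so that their separation adds no support. With 8 libraries, every FLASH library lay below every sham library for 4.64% of all genes and above for 5.14%. For CONV these shares were 13.2% and 13%. Angptl8, Cavin1, Cavin2 and Gk were matched by their older symbols.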

Additional observations from a re-analysis of the deposited data

Results flagged for a closer look

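In the FLASH group the lowest of the 4 Acsl1 values lay far from the others. FLASH replicate 3 stood at 463 CPM, against 1923 CPM in the nearest library and 2168 CPM in the highest, so that the gap took up 0.857 of the range of the group, above the critical value of 0.829 for 4 samples. About 1 in 20 groups passes this limit by chance, and the rule was run on all 10 members, of which Acsl1 alone passed. FLASH replicate 3 had already been set apart and was the lowest FLASH library for every member, so the flag adds no support. It is the library in which the B and T cell markers were high, and the other 9 members were low there too, though with FLASH replicates 1, 2 and 4 spread more widely than for Acsl1. The part of the lymphoid markers in this value was not tested.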

How the results depend on the processing

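In none of the 33 alternatives did any of the 10 members pass in any comparison, though the median of their log2 fold changes took both signs, from −0.49 to 0.25 in FLASH against sham, −0.99 to 0.25 in CONV against sham and −0.24 to 0.74 in FLASH against CONV. What moved was the number of genes past the threshold over the whole table, 0 in the 3 comparisons with all 10 libraries. In FLASH against sham it was 4 with DESeq2 without the pair. In CONV against sham it was 66 with DESeq2, 1 with limma voom and quality weights, and without the pair 6 in edgeR, 661 in DESeq2, 4 in limma voom with quality weights and 3 scaled by the adipocyte genes. In FLASH against CONV it was 40 with DESeq2, 1 with limma voom and quality weights, and without the pair 2 in edgeR, 667 in DESeq2, 2 in limma voom with quality weights and 3 scaled by the adipocyte genes. With 1 library left out it ran from 0 to 1134 in CONV against sham and from 0 to 1025 in FLASH against CONV, both high values without the pair and without CONV replicate 1, which leaves CONV with 1 library whose spread is taken from the other groups; without CONV replicate 3 instead it was 138 and 86. The cause was not tested.

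Single members, none of them past the threshold, changed sign in 175 of 990 recomputed log2 fold changes, and 0 came to pass. The cause was not tested. With limma voom and quality weights the values with the other sign were in FLASH against sham 0.19 for Cebpa, 0.27 for Cd36, 0.15 for Pck1, and in CONV against sham 0.064 for Fabp4, and in FLASH against CONV 0.043 for Acsl1. With the replicate block the values with the other sign were in FLASH against sham −0.0078 for Cidec, and in FLASH against CONV 0.013 for Fabp4. Without the pair the values with the other sign were in FLASH against sham 0.059 for Cebpa, 0.041 for Plin4, 0.27 for Cd36, 0.041 for Pck1, and in CONV against sham 0.0057 for Pparg, 0.12 for Cebpa, 0.14 for Fabp4, 0.14 for Cidec, 0.11 for Acsl1, and in FLASH against CONV −0.083 for Pparg, −0.063 for Cebpa. Without the pair in DESeq2 the values with the other sign were in FLASH against sham 0.069 for Cebpa, 0.048 for Plin4, 0.28 for Cd36, 0.050 for Pck1, and in CONV against sham 0.016 for Pparg, 0.13 for Cebpa, 0.16 for Fabp4, 0.15 for Cidec, 0.12 for Acsl1, and in FLASH against CONV −0.088 for Pparg, −0.065 for Cebpa. Without the pair in limma voom with quality weights the values with the other sign were in FLASH against sham 0.21 for Cebpa, 0.31 for Cd36, 0.17 for Pck1, 0.041 for Gpd1, and in CONV against sham 0.13 for Cebpa, 0.26 for Fabp4, 0.16 for Cidec, 0.095 for Acsl1, and in FLASH against CONV −0.12 for Pparg. Without the pair and scaled by the adipocyte genes the values with the other sign were in FLASH against sham 0.10 for Cd36. Without the pair and with the replicate block the values with the other sign were in FLASH against sham 0.0031 for Pparg, 0.24 for Cebpa, 0.14 for Fabp4, 0.13 for Plin4, 0.32 for Cd36, 0.0082 for Acsl1, 0.12 for Pck1, 0.068 for Gpd1, and in CONV against sham 0.18 for Cidec, 0.061 for Acsl1, and in FLASH against CONV 0.20 for Fabp4. Scaled by the adipocyte genes the values with the other sign were in CONV against sham 0.11 for Cebpa, 0.017 for Fabp4, 0.011 for Cidec, and in FLASH against CONV −0.095 for Pparg, −0.20 for Cebpa. With 1 library left out, log2 fold changes in FLASH against sham ran from −0.53 to 0.0058 for Pparg, −0.48 to 0.49 for Cebpa, −0.82 to 0.043 for Fabp4, −0.55 to 0.12 for Plin4, −0.34 to 0.62 for Cidec, −0.043 to 0.66 for Lpl, −0.28 to 0.36 for Cd36, −0.54 to 0.0065 for Acsl1, −0.45 to 0.38 for Pck1, −0.75 to 0.15 for Gpd1. With 1 library left out, log2 fold changes in CONV against sham ran from −1.10 to 0.35 for Pparg, −1.34 to 0.71 for Cebpa, −0.84 to 0.38 for Fabp4, −0.62 to 0.31 for Cidec, −1.30 to 0.17 for Lpl, −0.94 to 0.011 for Cd36, −0.98 to 0.42 for Acsl1, −1.26 to 0.090 for Pck1, −1.0 to 1.41 for Gpd1. With 1 library left out, log2 fold changes in FLASH against CONV ran from −0.43 to 0.73 for Pparg, −0.65 to 1.10 for Cebpa, −0.58 to 0.42 for Fabp4, −0.093 to 0.71 for Cidec, −0.00098 to 0.88 for Cd36, −0.52 to 0.59 for Acsl1, −0.017 to 1.02 for Pck1, −1.59 to 0.51 for Gpd1.

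No pairing by replicate number was seen: same-numbered libraries of different groups had correlations of −0.765 to 0.267, and 0 of 9 libraries correlated best with their own number. These are correlations of deviations from the group mean, with the lymphocyte-rich pair included, whose libraries carry different numbers. The check therefore cannot exclude that libraries were paired. With the replicate block 0 members and 0 genes passed in each comparison, with 10 libraries or without the pair, the second of these fits being added after the data were seen. The spread between libraries, not depth, set the width of the intervals.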
